A study of Mus musculus with 6 samples.

Results

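The Polycomb complex genes examined here are 9 genes: Ezh1, Ezh2, Eed and Suz12 of Polycomb repressive complex 2 (PRC2), and Bmi1, Ring1, Cbx2, Cbx7 and Cbx8 of Polycomb repressive complex 1 (PRC1). Their accessible regions were taken by position alone. A region was kept if it overlapped the body of one of the 9 genes in the RefSeq annotation of GRCm38, or if it overlapped no protein-coding gene and had one of them as its nearest protein-coding gene within 100000 bp. This gave 61 of the 97124 peaks in the authors' list, with coordinates in mm10. ATAC-seq, which uses a transposase to place sequencing adapters in open chromatin, had been run on primary B-cells from the bone marrow of PEtg mice. Quiescent cells were those that kept a high level of H2B-GFP (3 samples), and proliferating cells were those with a low level (3 samples). H2B-GFP is a fluorescent histone fusion, and each division dilutes it. All 6 samples share the PEtg genotype, which the labels do not spell out, and there was no wild-type group. The labels give no age, and do not say whether the samples of a group came from separate mice, so the p-values rest on a spread that could be technical.

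Polycomb proteins keep genes silent by marking histones. PRC2 places methyl groups on histone H3 through Ezh2 or its paralogue Ezh1, with Eed and Suz12 as obligate partners. PRC1 reads that mark through a Cbx protein and adds ubiquitin to histone H2A through Ring1 or its paralogue Rnf2, with Bmi1 as a partner that stimulates the reaction. In blood and lymphoid cells Ezh2 is known as the form of dividing cells and Ezh1 as the form that persists in resting cells, and in mice Ezh2 is needed for normal early B-cell development. RNA and protein of these genes were not measured, and the gene named for a peak between genes is only the nearest one.

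The promoter windows of 7 genes are printed because a listed peak lay over the start of each. The start-site values given further on are for whole peaks, from 238 bp wide at Ring1 to 2373 bp at Eed, and not for these windows. The Ring1 peak covers only part of its window. Each window runs from 250 bp before to 50 bp after the start, 5′ to 3′ on the strand of the gene, from RefSeq on GRCm38.p6. Capitals mark every match, on either strand, to GCGGGAA (bound by E2F factors), CCGGAAG (ETS factors), CCAAT (NF-Y), GGGCGG (Sp1 and KLF factors), GCATGCG (NRF1) or CACGTG (Myc and USF). Matches may overlap or adjoin.
Ezh1: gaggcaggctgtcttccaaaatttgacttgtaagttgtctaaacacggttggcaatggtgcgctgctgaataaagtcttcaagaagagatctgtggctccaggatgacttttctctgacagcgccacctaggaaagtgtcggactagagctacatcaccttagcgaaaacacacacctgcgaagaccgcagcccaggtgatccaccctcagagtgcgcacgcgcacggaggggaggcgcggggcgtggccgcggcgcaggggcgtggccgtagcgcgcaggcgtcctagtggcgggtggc
Ezh2: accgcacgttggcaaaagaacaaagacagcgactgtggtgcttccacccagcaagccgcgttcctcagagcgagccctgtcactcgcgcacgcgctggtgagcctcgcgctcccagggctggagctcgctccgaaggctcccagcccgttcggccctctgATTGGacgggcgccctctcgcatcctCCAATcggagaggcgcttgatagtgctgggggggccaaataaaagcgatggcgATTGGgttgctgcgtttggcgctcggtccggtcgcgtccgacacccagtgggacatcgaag
Eed: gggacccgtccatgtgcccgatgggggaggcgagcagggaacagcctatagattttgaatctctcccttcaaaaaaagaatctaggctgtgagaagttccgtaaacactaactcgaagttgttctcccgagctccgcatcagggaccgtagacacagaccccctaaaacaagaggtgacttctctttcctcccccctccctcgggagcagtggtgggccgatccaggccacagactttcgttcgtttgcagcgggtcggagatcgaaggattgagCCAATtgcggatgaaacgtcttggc
Suz12: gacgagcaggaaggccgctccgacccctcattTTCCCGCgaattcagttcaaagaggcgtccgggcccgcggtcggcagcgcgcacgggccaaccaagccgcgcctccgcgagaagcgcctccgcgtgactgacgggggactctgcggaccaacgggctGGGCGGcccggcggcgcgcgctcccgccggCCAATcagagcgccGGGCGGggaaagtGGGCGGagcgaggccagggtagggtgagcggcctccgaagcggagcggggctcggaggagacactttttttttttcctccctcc
Ring1: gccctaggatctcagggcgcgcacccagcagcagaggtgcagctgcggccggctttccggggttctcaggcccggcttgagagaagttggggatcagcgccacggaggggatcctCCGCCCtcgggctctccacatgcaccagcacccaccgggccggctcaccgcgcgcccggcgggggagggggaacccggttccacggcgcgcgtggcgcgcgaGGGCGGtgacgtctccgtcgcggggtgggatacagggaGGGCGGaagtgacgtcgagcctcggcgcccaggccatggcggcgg
Cbx7: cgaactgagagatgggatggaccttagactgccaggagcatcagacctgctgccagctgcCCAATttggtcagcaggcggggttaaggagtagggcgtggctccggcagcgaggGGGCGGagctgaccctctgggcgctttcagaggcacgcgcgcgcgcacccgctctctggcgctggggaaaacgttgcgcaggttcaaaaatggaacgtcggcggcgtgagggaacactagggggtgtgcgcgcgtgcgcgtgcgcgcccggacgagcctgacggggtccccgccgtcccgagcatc
Cbx8: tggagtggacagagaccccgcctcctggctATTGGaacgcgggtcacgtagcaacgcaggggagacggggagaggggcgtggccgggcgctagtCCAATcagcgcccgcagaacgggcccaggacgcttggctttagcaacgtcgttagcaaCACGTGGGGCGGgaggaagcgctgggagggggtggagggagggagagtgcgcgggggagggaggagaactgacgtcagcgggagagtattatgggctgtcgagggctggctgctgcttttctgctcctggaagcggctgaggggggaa

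The Ezh1 window is at chr11:101226414-101226713, Ezh2 at chr6:47594981-47595280, Eed at chr7:89980927-89981226 and Ring1 at chr17:34024631-34024930, all on the minus strand. Suz12 is at chr11:79992856-79993155 on the plus strand, and Cbx7 at chr15:79932597-79932896 and Cbx8 at chr11:119040864-119041163 are on the minus strand. The windows held between 17 CpG dinucleotides at Eed and 41 at Suz12, against a median of 7 over 32851 RefSeq promoter windows. CCAAT was found in 5 of the 8 member windows in the table (Ezh2, Eed, Suz12, Cbx7 and Cbx8), and in 37.4% of all windows. Ezh2 held 3 copies of it, all within 100 bp upstream of the start, and Eed held 1 copy just after the start. GGGCGG was also found in 5 of 8 (Suz12, Ring1, Cbx7, Cbx8 and Bmi1), and in 35.7% of all windows. GCGGGAA was found at Suz12 alone among the 8, against 4.6% of all windows, and CACGTG at Cbx8 and Bmi1, against 7.15%. CCGGAAG and GCATGCG had no match in the 8 windows, and were in 8.86% and 3.58% of all windows. A match is a string of letters and not a shown binding site. Ezh1 held none of the 6 words. Cbx2 has no entry in the table.

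The 6 libraries differed in depth, and proliferating sample 1 stood apart at these genes. The reads in peaks estimated from the values ranged from 14020177 to 28113180 in quiescent samples and from 8050770 to 49188984 in proliferating samples. The median Polycomb peak held 76, 38 and 55 reads in quiescent samples 1, 2 and 3, and 19, 115 and 193 reads in proliferating samples 1, 2 and 3. On the log2 scale, proliferating sample 1 lay 0.35 below the mean of the samples at the median Polycomb peak, while the other 5 samples lay between 0.00 and 0.15 above it. Over all tested peaks, the same sample was at -0.01. Values without proliferating sample 1 are therefore given where a result rests on it. Proliferating sample 1 had both the fewest reads and the lowest median value at these peaks. Quiescent sample 2, with 14020177 reads, lay 0.10 above the mean of the samples there. The part of depth was not tested. All 10 B-cell marker genes had a peak within 1 kb of a gene end, with mean signals between 823 and 5345 and sums of 18884 to 21034 in quiescent and 20405 to 24779 in proliferating samples. Of 6 myeloid markers, 4 had one (51 to 396), and Mpo and Elane had none; their summed signal was 726 to 903 in quiescent samples and 465 to 535 in proliferating samples. Of 5 T-cell markers, 3 had one, with sums of 945 to 1119 in quiescent and 789 to 838 in proliferating samples, and Cd3e and Cd3g had none. Of 5 erythroid markers only Hbb-bt had one (1032 to 1346 in quiescent and 872 to 1067 in proliferating samples), and Epor, Hba-a1, Klf1 and Slc4a1 had none. The part of these other cell types in the results below was not tested.

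Over the 9 genes, 2 of the 55 tested peaks (3.64%) passed the threshold, both higher in quiescent cells and both in the interval upstream of Eed. The other 6 of the 61 peaks were too weak to be tested. The test was limma on log2(signal + 1) over 87411 peaks, with a Benjamini-Hochberg adjusted p of 0.05 as the threshold. All fold changes are quiescent over proliferating on that scale. The added 1 shrinks the fold changes of weak peaks, while a single low sample can enlarge them. Of all tested peaks 6.72% passed (4.01% higher and 2.72% lower), so the share at Polycomb genes was no higher than at peaks in general. Without proliferating sample 1, 4 of the 55 passed, against 9.51% of all peaks. An alternative fit took the replicate number as a block. The labels do not state that pairing, which was inferred from correlations in these same data, so blocked p-values are no independent support. With the block, 9 of the 55 (16.4%) passed, 8 higher and 1 lower, against 18.3% of all tested peaks (10.2% higher and 8.14% lower). All 9 were assigned to PRC2 genes (29% of their 31 tested peaks), namely 2 to Ezh1, 2 to Ezh2 and 5 to Eed, and 6 of them lay between genes. With the block 19.5% of all tested peaks between genes passed, and 8.77% of those at gene ends. None of the 24 tested PRC1 peaks passed with the block, and the difference between the complexes was not tested. The quiescent and proliferating values did not overlap at 21 of the 55 peaks (38.2%), against 30.4% of all tested peaks. The median log2 fold change was 0.07 over the 55 peaks, against -0.01 over all tested peaks, and it was -0.10 without proliferating sample 1. In a bulk sample, fewer cells with an open region and less opening in each cell cannot be told apart.

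**Figure D1:**
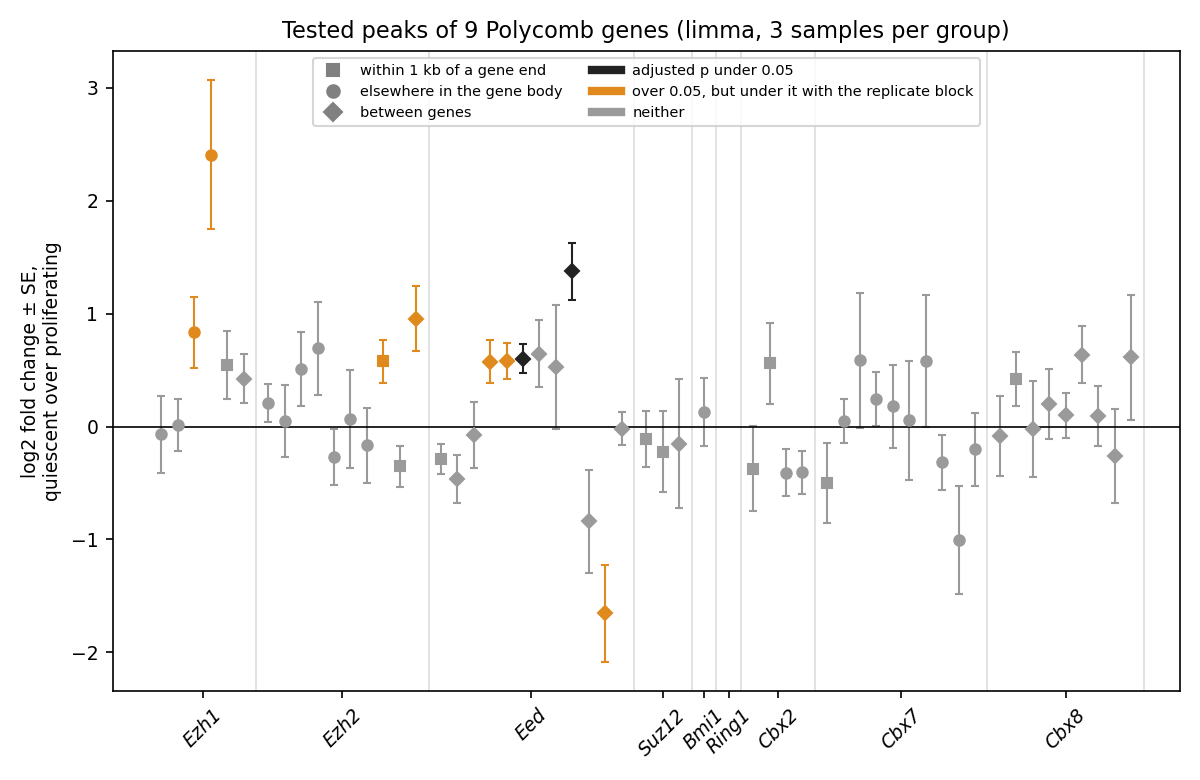
Log2 fold change (quiescent over proliferating, ± SE from limma, 3 samples per group) of the 55 tested peaks, by gene and in chromosome order within each gene; Ring1 has no tested peak. Squares lie within 1 kb of a gene end, circles elsewhere in the gene body and diamonds between genes. The 2 black points, both upstream of Eed, have an adjusted p under 0.05, and the 7 orange points have one above 0.05 that falls under it with the replicate block.

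Eed, the PRC2 subunit that binds the methyl mark and stimulates the enzyme, had 13 peaks, of which 12 lay between genes. The strongest of all 61 Polycomb peaks lay 41625 bp upstream of its gene body (chr7:90022601-90024056). This peak had 1898, 1706 and 1489 signal units in quiescent samples 1, 2 and 3, against 1076, 1189 and 1077 in proliferating samples 1, 2 and 3. Every quiescent sample lay above every proliferating one, and the peak rose (log2 fold change 0.60 ± 0.13 SE, limma adjusted p = 0.0271). A weaker peak 52707 bp from the gene (chr7:90033683-90034819) had 129.7, 229 and 161 units in quiescent samples, against 69.5, 66.4 and 57.6 in proliferating samples. It rose as well (1.37 ± 0.25, limma adjusted p = 0.0191), again with no overlap between the groups. The estimated reads behind it were 150, 147 and 133 in quiescent samples and 26, 110 and 151 in proliferating samples. Both calls were lost when quiescent sample 2 or 3 or proliferating sample 2 or 3 was left out, with adjusted p-values up to 0.109 and 0.0822, while their log2 fold changes were 0.58 to 0.69 and 1.15 to 1.41. In those 4 fits the threshold was passed by 0 to 1129 of all tested peaks, against 5876 with all samples. On estimated reads with limma-voom the log2 fold change of the stronger peak was 0.95.

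The 6 tested peaks between 35341 and 52707 bp upstream all had positive fold changes (0.53 to 1.37), and the next 2 further out had negative ones. The peak 38246 bp from Eed (chr7:90019222-90020383) had 722, 672 and 710.1 units in quiescent samples, against 569, 415 and 433 in proliferating samples. Its log2 fold change was 0.58 ± 0.16 (limma adjusted p = 0.06, and 0.0112 with the block; without proliferating sample 1 it was 0.72 with an adjusted p of 0.0137). The peak 35341 bp away (chr7:90016317-90017014) averaged 202 ± 26.9 in quiescent and 135 ± 4.86 in proliferating samples (SD, n = 3 each), with a log2 fold change of 0.58 ± 0.19 (limma adjusted p = 0.1, and 0.0445 with the block). Further out, 67301 bp from the gene (chr7:90048277-90049125), the order was the opposite. That peak had 184, 50.5 and 72.4 units in quiescent samples, against 381, 246 and 229.9 in proliferating samples, a log2 fold change of -1.65 ± 0.43 (limma adjusted p = 0.0532, and 0.00106 with the block). It passed without quiescent sample 1 (-2.18, adjusted p = 0.00993). The outermost peak, 73655 bp away, had overlapping groups (531 ± 50.6 in quiescent and 538 ± 57.3 in proliferating samples). These regions lie between Eed and Picalm, a gene of clathrin-mediated endocytosis, whose body is 81067 bp from the peak with the negative fold change. Those from 47965 to 67301 bp also overlap the non-coding gene E230029C05Rik, and which gene they act on, if any, was not measured.

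The peak over the Eed start itself was lower in every quiescent sample, without passing the test. It had 569.7, 623 and 532 units in quiescent samples, against 721, 657 and 721 in proliferating samples (log2 fold change -0.28 ± 0.13, limma adjusted p = 0.228, and 0.142 with the block). The difference depended on the scaling: on estimated reads the log2 fold change was -0.025 with limma-voom, -0.016 with median of ratios and -0.25 with scaling to totals. A peak 17025 bp upstream had values in the same order (98.4 ± 15.3 in quiescent and 135 ± 9.04 in proliferating samples, adjusted p = 0.214 in limma). Summed over all 13 peaks, Eed had 4535, 4344 and 3929 units in quiescent samples, against 3863, 3511 and 3502 in proliferating samples. The sums did not overlap, and they mix peaks of both directions.

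**Figure D2:**
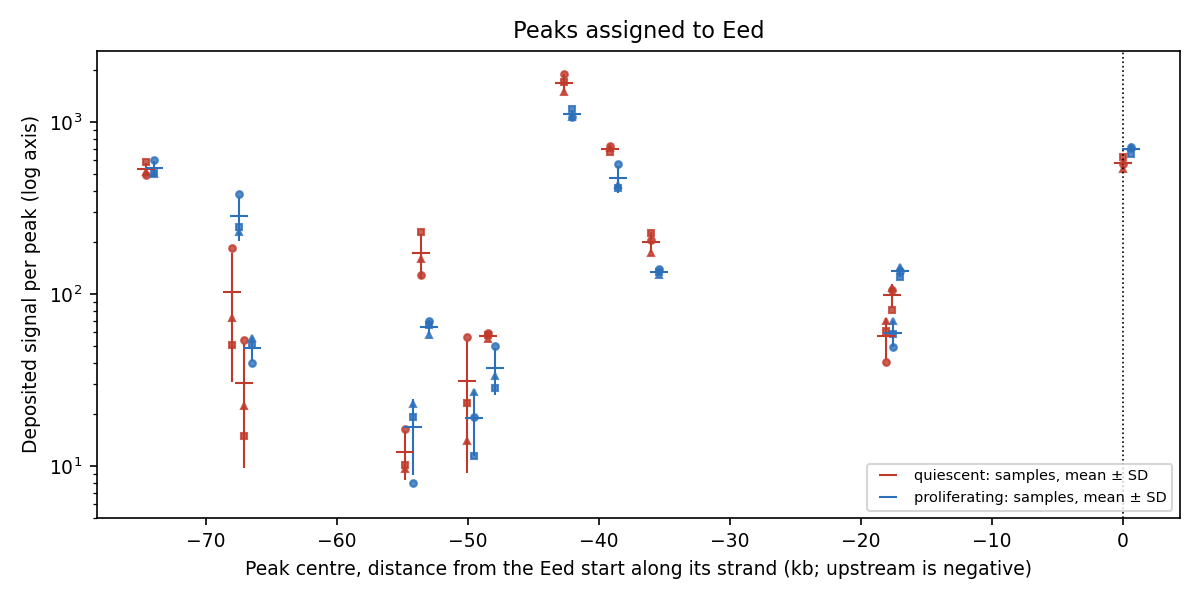
Deposited signal (log axis) of the 13 Eed peaks by the distance of the peak centre from the Eed start in kb, upstream to the left; circles, squares and triangles are samples 1, 2 and 3, and dashes with bars are means ± SD (quiescent red, drawn left of proliferating blue). Quiescent samples lie above proliferating ones at the strongest peak (1489 to 1898 against 1076 to 1189) and below them at the start (532 to 623 against 657 to 721).

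Ezh1, the PRC2 methyltransferase associated with resting cells, had 6 peaks, and 3 of them had quiescent values wholly above the proliferating ones, as did 15.4% of all tested peaks. The strongest, inside the gene 4348 bp from its start (chr11:101221315-101222115), had 302, 492 and 335 units in quiescent samples, against 127, 297 and 232 in proliferating samples. The lowest quiescent and the highest proliferating value were close, and the peak did not pass without the block (log2 fold change 0.84 ± 0.32, limma adjusted p = 0.146, and 0.00775 with the block). Without proliferating sample 1, which had 47 reads there, the log2 fold change was 0.49. A weak peak nearer the start (chr11:101224387-101224721) had 32.9, 66.0 and 64.1 units in quiescent samples, against 2.30, 15.9 and 16.8 in proliferating samples. The value of proliferating sample 1 there was 1 read. The log2 fold change was 2.41 ± 0.66 (limma adjusted p = 0.0632, and 0.0039 with the block), and without proliferating sample 1 it was 1.61 with an adjusted p of 0.0385. The peak over the Ezh1 start had 94.0, 76.0 and 111 units in quiescent samples, against 42.4, 72.5 and 81.5 in proliferating samples. The groups overlapped there, and the peak did not pass (0.55 ± 0.30, limma adjusted p = 0.305, and 0.171 with the block); without proliferating sample 1 its log2 fold change was 0.26. The third peak without overlap lay 4782 bp upstream (102 ± 10.6 in quiescent and 75.7 ± 6.05 in proliferating samples). The 2 deepest in the gene, 9913 and 14012 bp from the nearest end, had overlapping groups and log2 fold changes of -0.07 and 0.01. Summed over its peaks, Ezh1 had 731, 1030.2 and 859 units in quiescent samples, against 446, 745 and 667 in proliferating samples. The sums overlapped, and proliferating sample 1 was the lowest.

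Ezh2, the methyltransferase associated with dividing cells, had 10 peaks, and its pair of peaks at the start had opposite orders. The peak over the start (chr6:47594867-47596437) had 194, 210.4 and 181 units in quiescent samples, against 212, 270.0 and 268 in proliferating samples (log2 fold change -0.35 ± 0.18, limma adjusted p = 0.269). It also overlaps the non-coding gene F830010H11Rik. The neighbouring peak, inside the gene and 505 bp from its 5′ end (chr6:47593491-47594765), had 463, 321 and 358 units in quiescent samples, against 234, 289 and 234 in proliferating samples (0.58 ± 0.19, limma adjusted p = 0.104, and 0.0414 with the block). The groups overlapped at neither peak. The start peak did not pass with the block either (limma adjusted p = 0.168), while the inner peak also passed on estimated reads with limma-voom (0.76, adjusted p = 0.0323) and with median-of-ratios scaling (0.76, adjusted p = 0.0476). Within each sample, the log2 ratio of the inner peak to the start peak was 1.25, 0.60 and 0.98 in quiescent samples, against 0.14, 0.10 and -0.19 in proliferating samples. The means differed by 0.93, a description with no test, since the pair was chosen for its opposite orders. A peak 25659 bp upstream of Ezh2 (chr6:47620929-47621472) had 125, 77.6 and 125 units in quiescent samples, against 50.4, 45.4 and 71.5 in proliferating samples (0.95 ± 0.29, limma adjusted p = 0.0826, and 0.0178 with the block). The strongest Ezh2 peak away from the gene ends (chr6:47587032-47587889) had overlapping groups, at 227 ± 43.7 in quiescent and 279 ± 84.0 in proliferating samples. Over all 10 peaks the sums overlapped, at 1708, 1507 and 1396 units in quiescent samples, against 1231, 1539.6 and 1373 in proliferating samples.

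Set against each other, the start peaks of Ezh1 and Ezh2 had a ratio that separated the groups. Neither of the start peaks passed by itself (limma adjusted p = 0.305 for Ezh1 and 0.269 for Ezh2). The log2 ratio of Ezh1 to Ezh2 was -1.03, -1.46 and -0.70 in quiescent samples, against -2.30, -1.88 and -1.71 in proliferating samples. Ezh1 had the weaker start peak in all 6 samples, and the gap was smaller in each quiescent sample than in any proliferating one. The mean difference was 0.90, 0.73 without proliferating sample 1 and 0.72 on the estimated reads. This ratio and the ratio within Ezh2 were chosen after their values were seen, and no test is given for either. The separation holds for this choice of Ezh2 peak only. With the stronger Ezh2 peak inside the gene (chr6:47593491-47594765) in place of the start peak, the ratios of the groups overlap.

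**Figure D3:**
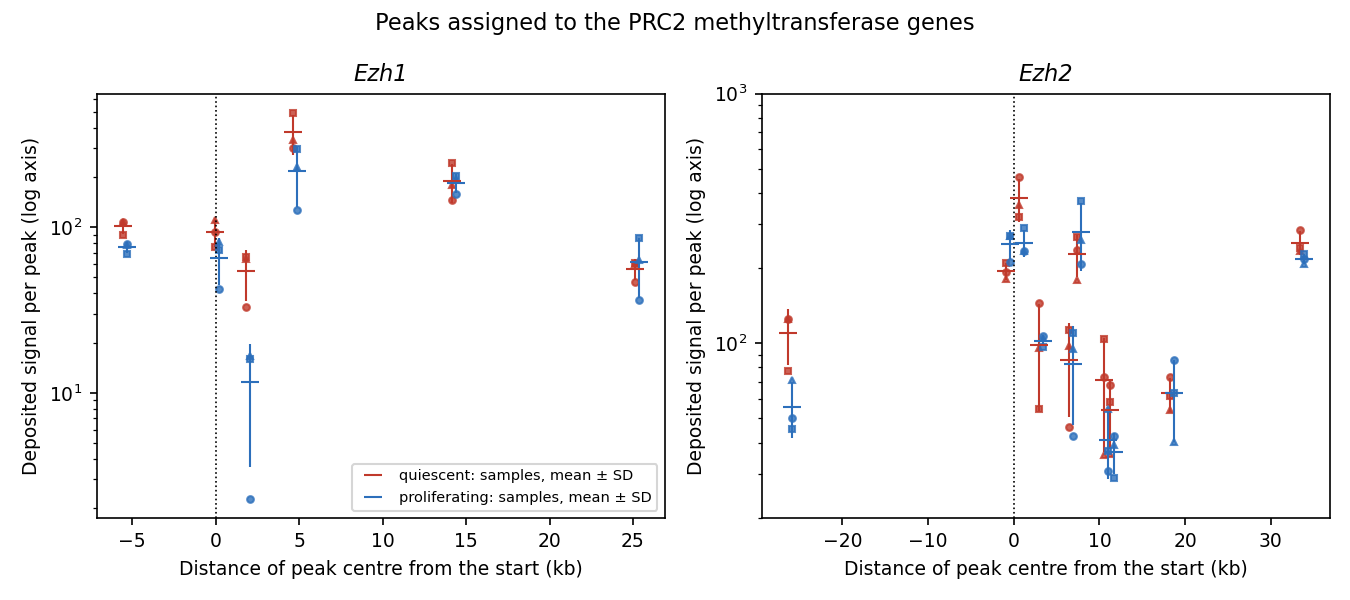
Deposited signal (log axis) of the 6 Ezh1 peaks and the 10 Ezh2 peaks by distance of the peak centre from the start in kb, with positive distances inside the gene; circles, squares and triangles are samples 1, 2 and 3, and dashes with bars are means ± SD (quiescent red, drawn left of proliferating blue). At Ezh1 the strongest peak has 302 to 492 units in quiescent and 127 to 297 in proliferating samples; at Ezh2 the peak over the start and the next one inside the gene have opposite orders.

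Suz12, the subunit that holds PRC2 together, had 4 peaks, none of which differed beyond the spread. Its start peak (chr11:79992289-79993355) had 109, 96.6 and 100.3 units in quiescent samples, against 80.1, 119 and 139 in proliferating samples. The quiescent values lay inside the proliferating range (log2 fold change -0.11 ± 0.25, limma adjusted p = 0.834). The strongest peak elsewhere, 3970 bp beyond the gene, was weak and variable (26.6 ± 13.7 in quiescent and 30.5 ± 20.9 in proliferating samples, adjusted p = 0.9 in limma).

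Of the PRC1 members, Bmi1 and Ring1 held the fewest peaks. Bmi1 had 2, both inside the gene, and neither overlapped its promoter window. The stronger one (chr2:18680860-18681294) had 53.9, 53.3 and 32.2 units in quiescent samples, against 44.9, 42.3 and 37.2 in proliferating samples (log2 fold change 0.13 ± 0.30, limma adjusted p = 0.839). The groups overlapped, and the sign turned in each of the 3 fits on estimated reads. Ring1, which encodes a ubiquitin ligase of PRC1, had 1 peak, over its start (chr17:34024546-34024784). That peak had 18.8, 21.1 and 25.5 units in quiescent samples, against 5.90, 12.5 and 13.6 in proliferating samples. The groups did not overlap, but the peak rested on 18, 10 and 18 reads in quiescent and 4, 20 and 39 reads in proliferating samples. It was among those left out of the test, and without the filter on weak peaks its adjusted p in limma was 0.198.

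The Cbx genes encode the chromodomain proteins that bring PRC1 to methylated histone H3, and none of their 23 tested peaks passed in limma, with or without the block, although 1 had an unadjusted p under 0.05. Cbx2 and Cbx8 are neighbours on chromosome 11. Cbx2 had 4 peaks. The strongest (chr11:119025895-119026797), inside the gene 2876 bp from its nearer end, had 151, 123 and 124 units in quiescent samples, against 182, 159 and 187 in proliferating samples (log2 fold change -0.41 ± 0.19, limma adjusted p = 0.231). The peak beside it (chr11:119024186-119025287) was lower in quiescent samples by the same amount, at 78.9 ± 5.11 against 105 ± 8.24 (-0.41 ± 0.21). Neither pair of groups overlapped. The strongest peak at a Cbx2 end was weak, at 24.7 ± 8.66 in quiescent and 31.2 ± 5.14 in proliferating samples. Summed over its peaks, Cbx2 had 280.0, 248 and 262 units in quiescent samples, against 344, 315 and 332 in proliferating samples, with no overlap. A weaker peak 779 bp from the nearer gene end had the opposite order (log2 fold change 0.56 ± 0.36), so the direction was not shared by all 4.

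Cbx8 had its values in the opposite order at the start. Its start peak (chr11:119040109-119041338) had 161, 147 and 134 units in quiescent samples, against 80.3, 132 and 123 in proliferating samples (log2 fold change 0.42 ± 0.24, limma adjusted p = 0.317). The gap came mostly from proliferating sample 1, and without it the log2 fold change was 0.20. The strongest Cbx8 peak, 6253 bp upstream (chr11:119047166-119048714), had 374, 403 and 401 units in quiescent samples, against 273, 426 and 422 in proliferating samples. Its log2 fold change of 0.10 became -0.11 without proliferating sample 1. A peak 8430 bp upstream had 62.1, 73.4 and 65.3 units in quiescent samples, against 36.0, 48.2 and 44.6 in proliferating samples (0.64 ± 0.25, limma adjusted p = 0.165). This was the only other tested Cbx8 peak without overlap. The sums over Cbx8 were 858, 905 and 872 units in quiescent samples, against 564, 917 and 884 in proliferating samples, with proliferating sample 1 again the lowest.

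Cbx7 had 11 peaks, all inside the gene as RefSeq draws it, and at several of them proliferating sample 1 stood apart. The strongest (chr15:79926899-79928577) had 283, 259.6 and 258 units in quiescent samples, against 202, 287 and 296 in proliferating samples (log2 fold change 0.05 ± 0.19, limma adjusted p = 0.908). Its sign turned without proliferating sample 1 and with reads scaled to totals. The start peak (chr15:79932375-79933349) had 51.3, 75.6 and 67.4 units in quiescent samples, against 13.1, 70.6 and 79.3 in proliferating samples. The 13.1 units of proliferating sample 1 were 5 reads. The log2 fold change was 0.59 ± 0.60 with all samples and -0.22 without that one, and -0.06 on estimated reads with limma-voom. The peak at chr15:79940969-79941541, upstream of that start, had 90.5, 91.4 and 88.7 units in quiescent samples, against 18.6, 104 and 109.7 in proliferating samples. Here too proliferating sample 1 alone was low, on 7 reads, and the log2 fold change of 0.58 became -0.24 without it. The peak within 1 kb of the other end of Cbx7 also overlaps Apobec3, an antiviral cytidine deaminase gene, and averaged 34.6 ± 13.3 in quiescent and 48.3 ± 11.5 in proliferating samples.

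**Figure D4:**
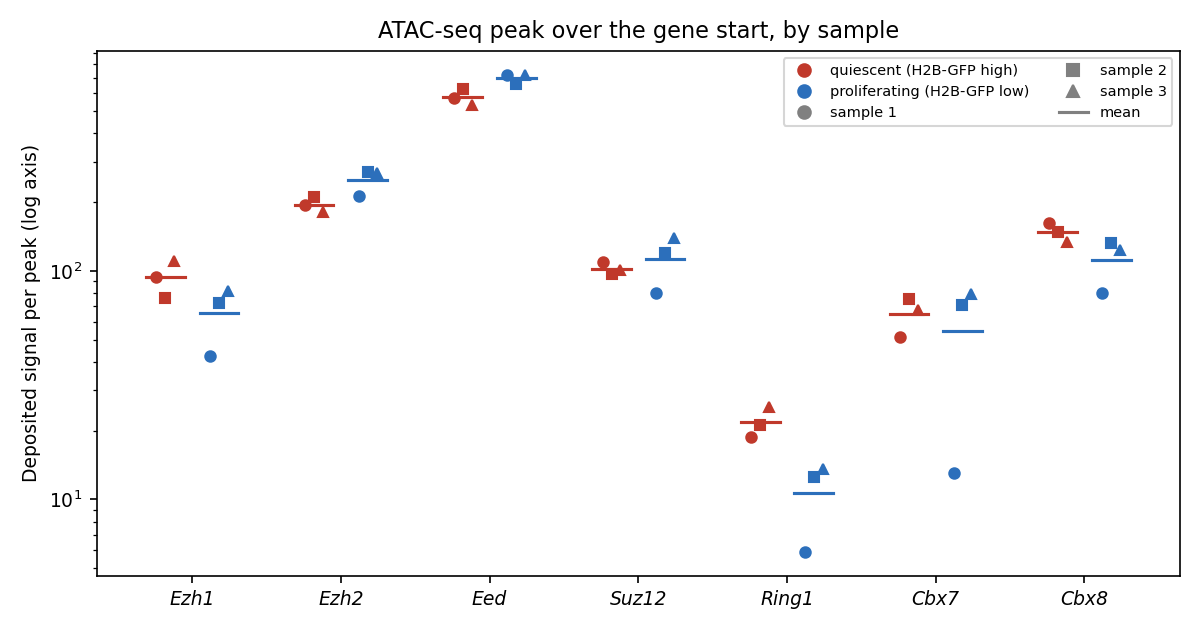
Deposited signal (log axis) of the peak over the start of 7 Polycomb genes in each sample; circles, squares and triangles are samples 1, 2 and 3, bars are group means, and quiescent values (red) stand left of proliferating ones (blue). Proliferating sample 1 is the lowest of the 6 at Ezh1, Suz12, Ring1, Cbx7 and Cbx8, and none of the 6 tested start peaks passed limma's test, with 0 at an unadjusted p under 0.05.

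Gene-end and intergenic Polycomb peaks were set against peaks of the same position. None of the 10 tested peaks within 1 kb of either end of a member gene passed, against 2.8% of the 15820 tested peaks at gene ends. In limma 1 of the 10 had an unadjusted p under 0.05. With the block 1 of the 10 passed, against 8.77% of the tested peaks at gene ends. Their median log2 fold change was -0.16, against -0.08 over all tested gene-end peaks. Of the 22 tested peaks between genes 2 passed (9.09%), against 7.42% of such peaks. Peak widths had a median of 565 bp at Polycomb genes, against 547 bp over the list, and mean signals had a median of 63.1, against 68.5. Per kb of peak, so that lengths do not enter, the start peaks of Eed averaged 242 units in quiescent and 295 in proliferating samples. Those of Ezh2 averaged 124 in quiescent and 159 in proliferating samples, and those of Cbx8 averaged 120 in quiescent and 90.9 in proliferating samples. Suz12 averaged 95.8 per kb in quiescent and 106 in proliferating samples, Ring1 91.5 in quiescent and 44.8 in proliferating samples, and Ezh1 81.9 in quiescent and 57.2 in proliferating samples. Cbx7 was lowest among quiescent means, at 66.5, against 55.8 in proliferating samples.

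Other genes tied to the pathway were taken as a list of 32, of which 29 had 249 peaks. The list holds PRC2 and PRC1 partners, genes for removal of the marks, and Cdkn2a and Cdkn2b as a repressed target locus. Rbbp7, Bcor and Kdm6a are on chromosome X, where the list analysed here has no peak. Of 233 tested peaks, 15 passed (6.44%), 9 higher and 6 lower in quiescent cells, again close to the 6.72% of all peaks. The target locus, described further on, gave 23 of these tested peaks and 3 of the higher calls. With the block 40 passed (17.2%), 18 higher and 22 lower, against 18.3% of all tested peaks (10.2% higher and 8.14% lower). Calls were all higher at 5 of the 29 genes, all lower at 2 and mixed at 2, and 20 genes had none.

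Among partners of PRC2, Jarid2 and Phf19 had the calls without the block, all of them lower in quiescent cells. Jarid2, a DNA-binding cofactor that helps recruit PRC2, had 3 peaks that fell among 31 tested. The strongest of the 3, inside the gene, averaged 541 ± 85.4 in quiescent and 1464 ± 303 in proliferating samples (chr13:44766924-44768591), and the one with the lowest adjusted p, 2374 bp outside the gene, averaged 49.4 ± 6.95 in quiescent and 191 ± 43.7 in proliferating samples (log2 fold change -1.92 ± 0.24, limma adjusted p = 0.00773). Phf19, a reader of histone methylation that joins PRC2, had a strong peak inside the gene that fell (1367 ± 139 in quiescent and 2407 ± 63.0 in proliferating samples, -0.82 ± 0.11, limma adjusted p = 0.0088). Over all 62 tested peaks of the listed PRC2 partners, 4 passed, all lower (6.45%), against 6.72% of all tested peaks in either direction and 2.72% lower. The median was -0.21, against -0.01 over all tested peaks. With the block 15 passed (24.2%, against 18.3% of all tested peaks), 12 lower and 3 higher, the higher ones being 2 at Epop and 1 at Jarid2.

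Among PRC1 partners, calls went both ways, and their share was below that of peaks in general. Of 136 tested peaks 7 passed (5.15%, against 6.72% of all tested peaks), 5 higher and 2 lower in quiescent cells. With the block 19 passed (14%, against 18.3%), 9 higher and 10 lower. A peak 69496 bp from Rybp, a subunit of the variant PRC1 complexes, averaged 152 ± 5.28 in quiescent and 36.3 ± 5.65 in proliferating samples (2.05 ± 0.23, limma adjusted p = 0.00637). Pcgf5, a paralogue of Bmi1, had a peak inside the gene that fell (34.2 ± 3.13 in quiescent and 141 ± 18.2 in proliferating samples, -2.0 ± 0.23) and one 75121 bp away that rose (0.86 ± 0.21). Kdm2b, which brings a variant PRC1 to CpG islands, had 2 adjoining peaks that rose (1.27 for each) and 1 that fell (-1.63 ± 0.21). A single peak rose inside Phc2, a PRC1 scaffold gene (0.83 ± 0.20). Among the listed genes for removal of the marks, 1 of 12 tested peaks passed (8.33%, against 6.72% of all tested peaks). It rose inside Asxl2, a partner of the enzyme that removes the ubiquitin mark (1.02 ± 0.21).

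The Cdkn2a and Cdkn2b locus, whose cell cycle inhibitors are a textbook target of Bmi1 and Ezh2 repression, had 24 peaks. Of 23 tested, 3 rose (13%) and none fell, against 4.01% of all tested peaks higher and 2.72% lower. With the block 4 passed (17.4%), all higher, against 18.3% of all tested peaks in either direction and 10.2% higher. A peak 1366 bp from Cdkn2a (chr4:89270562-89273107) averaged 793 ± 41.6 in quiescent and 485 ± 35.1 in proliferating samples (0.71 ± 0.13, limma adjusted p = 0.0196). The peaks 39849 bp and 57708 bp from Cdkn2b averaged 905 ± 133 and 613 ± 44.0 in quiescent samples, against 468 ± 11.4 and 212 ± 61.0 in proliferating samples, and the second had the larger change (1.57 ± 0.22, limma adjusted p = 0.0096). The median over the 23 peaks was 0.41, against -0.01 over all tested peaks.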

How the data were processed

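ATAC-seq libraries of 3 quiescent and 3 proliferating samples were analysed from 1 table, in which the authors deposited a signal value per peak and sample; a single peak list serves all 6 samples. Bowtie2, SAMtools, MACS2 and mm10 are named per the submitters' processing notes; the sources used here name no versions, and state nothing on the transposase offset, counting or scaling. The deposited signal sums to nearly the same total in each sample and steps smoothly with peak strength. The reads behind it were estimated by following that step in 6 rounds; 98.9% to 100% of values under 1000 reads came within 0.1 of a whole number. Intervals from such reads would cover counting error only. Deposited values entered limma 3.58.1 (R 4.3.3) with an intensity trend as log2(signal + 1), leaving out the 10% of peaks with the lowest mean. The code of the fit was run on simulated peaks with known changes and the same independent noise in every sample. That run does not cover the differences in depth or the links between samples in these data. Summaries used Python 3.11.15, numpy 2.4.6, pandas 2.3.3 and matplotlib 3.10.9.

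Same-numbered samples deviated together from their group means (correlations of 0.43, 0.285 and 0.21 over tested peaks), and with all 3 over 0.1 the numbers were taken to pair samples, from the data and not from a statement in the labels. Samples 2 and 3 were not clearly told apart by number: quiescent 2 with proliferating 3 had 0.22 and quiescent 3 with proliferating 2 had 0.146. Blocked values stand beside results they change. Named peaks were each member's strongest peak at a gene end and elsewhere and every called peak, with others of similar interest named after their values were seen. The members and lists were chosen with earlier results of these data known. Gene positions come from RefSeq on GRCm38.p6. Alternatives covered the pseudocount, filter, block, scaling, gene assignment and each sample left out. The promoter windows were the only genomic sequence used.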

Additional observations from a re-analysis of the deposited data

How the results depend on the processing

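In place of 2, the number of Polycomb peaks past the threshold was 9 with the replicate block (background 18.3%), 6 on estimated reads with limma-voom (13.8%), and 4 each with a pseudocount of 5 (7.24%), with reads scaled to totals (9.48%) and with median-of-ratios scaling (9.77%). It was 0 over gene bodies alone (3 at an unadjusted p under 0.05) and 0 to 4 with each sample left out. It was 0 without quiescent sample 2 or 3 or proliferating sample 2 or 3, where 7, 11, 10 and 9 Polycomb peaks had an unadjusted p under 0.05. Without quiescent sample 3 these were 11 of 55, beside 16562 of all 87411 tested peaks. The share of all tested peaks was not computed for the other fits, so these counts are not read as an excess. All tested peaks past the threshold numbered 15999 with the block and 12039 with limma-voom, against 5876, and 0 to 8310 with a sample left out; the 0 was without quiescent sample 3, where 16562 had an unadjusted p under 0.05. The list of other genes, with the target locus in it, had 40 calls among 233 tested peaks with the block (background 18.3%). It had 32 among 233 with limma-voom (background 13.8%), and 0 to 23 with a sample left out. Scaling reads to totals moved the median of all tested peaks to -0.21 and that of the Polycomb peaks to -0.16. With a sample left out the Polycomb median ran from -0.10 to 0.18, and the gene-end median from -0.30 to -0.01. The split of all calls was 3501 higher and 2375 lower, 2950 and 5336 with totals, and 5984 and 2552 with median of ratios. Of the peaks named by the stated rule, 5 changed sign under some setting, and none of those passed in any. The Bmi1 peak was at -0.0070 with limma-voom, -0.25 with totals and -0.021 with median of ratios, and the Cbx7 body peak was at -0.026 with totals. Leaving out a sample took the Cbx7 peak from -0.13 to 0.15, the Cbx8 upstream peak from -0.11 to 0.21, the Suz12 start peak from -0.33 to 0.059 and the downstream Suz12 peak from -0.48 to 0.35. The causes were not tested. Weak peaks rest on few reads in proliferating sample 1, the shallowest library, which limits their precision.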
